A study of Bos taurus with 2 samples.

Results

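Cluster 12, which the study calls myocytes, held 627 of the 19096 cells in a culture of bovine satellite cells. Its members were the cells given the number 12 in the clustering that the authors made with Cell Ranger, and this number was worked out for every cell from averages per cluster that the authors deposited. The cells came from the longissimus muscle of 1 Holstein bull calf aged 2 weeks and were grown for a week in Dulbecco's modified Eagle medium with 10% fetal bovine serum, without a step to induce differentiation. All cells shared this animal, medium and time, so cells of 1 culture were compared, not treatments. The 2 libraries, called replicates 1 and 2, were made from the same cells on the 10x Genomics platform, which counts each captured RNA molecule once through a unique molecular identifier (UMI). The spread between the libraries is therefore technical and says nothing of how animals differ.

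Satellite cells are the stem cells of skeletal muscle. Once activated, they divide as myoblasts. Myoblasts that leave the cell cycle and differentiate become myocytes. These turn on the transcription factor myogenin and build the contractile unit of muscle called the sarcomere. They fuse with each other into multinucleated fibers through the membrane proteins myomaker and myomixer. A myocyte in culture is usually recognized by myogenin and by the embryonic form of the myosin heavy chain, and serum at growth concentration normally keeps most cells dividing.

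Replicate 1 gave 315 cells of cluster 12 among 9939, or 3.17% (95% exact binomial interval 2.83% to 3.53%, counting error only). Replicate 2 gave 312 among 9157, or 3.41% (3.05% to 3.8%), so the shares of the libraries lay within each other's intervals. The cells of cluster 12 held 6149813 UMIs in replicate 1 and 6258678 in replicate 2. The median cell had 18889 UMIs and 3807 genes in replicate 1 and 19332 UMIs and 3887 genes in replicate 2, against 14626 and 15206 UMIs over all cells. Cluster 12 was therefore deeper than the average cell. Cluster 3, the other cluster that the study calls myocytes, had 2034 cells with medians of 16171 and 16957 UMIs. Scrublet called 13 cells of cluster 12 in replicate 1 and 6 in replicate 2 doublets, or 3.03%, against 7.46% of all cells, and they were kept. Of the 27 barcodes found in both libraries, 2 had a cell in cluster 12.

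The label was first set beside 5 markers of myocytes, which are among the genes the study names for this cluster. A level is given below as UMIs of a gene per 10000 UMIs of the cells named, without further scaling. A log2 ratio compares cluster 12 with other cells within each library after TMM scaling, which sets most genes to an equal level and adds 0.18 on average to the plain log2 ratio against the other cells and 0.11 to that against cluster 3. The clusters were formed from the same genes in the same cells, so the ratios are descriptions and no test of cluster 12 against other cells was made. MYOG (ENSBTAG00000006030), the gene of myogenin, had levels of 18.1 and 19.2 in replicates 1 and 2 of cluster 12, against 1.40 and 1.32 in the other cells. Its log2 ratios were 3.87 and 4.05, and cluster 12 held 38.5% of all MYOG UMIs with 4.38% of the UMIs of all genes. MYH3 (ENSBTAG00000011803), which encodes the embryonic myosin heavy chain, had levels of 14.8 and 16.2 against 0.377 and 0.373, with log2 ratios of 5.47 and 5.63. Both libraries of cluster 12 lay above both sums of the other cells for each of these genes. MYMK (ENSBTAG00000013242), the gene of myomaker, had levels of 3.11 and 3.20 against 0.0747 and 0.0863, with log2 ratios of 5.56 and 5.40. MYL1 (ENSBTAG00000009707), an alkali light chain of fast myosin, had levels of 1.44 and 1.34 against 0.104 and 0.0959. STAC3 (ENSBTAG00000018358), which couples excitation to contraction at the calcium channels of muscle, had levels of 1.61 and 1.64 against 0.135 and 0.133. All 5 markers were highest in cluster 12 of the 15 clusters in both libraries. This describes the cells and is no independent check of the label.

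The order of the clusters below cluster 12 was not the same for each marker. For MYOG the next clusters were cluster 3, at 6.61 and 6.76 UMIs per 10000, and cluster 15, at 4.93 and 3.06. For MYH3 the next was cluster 7, at 5.10 and 4.39, and then cluster 3, at 1.25 and 1.29. Cluster 3 was thus below cluster 12 for both genes, and by more for embryonic myosin than for myogenin. For MYMK, cluster 7 was second at 0.547 and 0.640, while cluster 15, at 0.420 and 0.322, and cluster 3, at 0.313 and 0.373, overlapped. For STAC3, clusters 3 and 7 overlapped, at 0.422 and 0.453 and at 0.457 and 0.386. For MYL1, cluster 15 was second at 0.420 and 0.806, with libraries that lay far apart. Clusters 7 and 15 are shallow, with medians of 1389 and 647 UMIs per cell, and cluster 15 held 219359 UMIs in all, so its levels rest on few molecules.

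**Figure D1:**
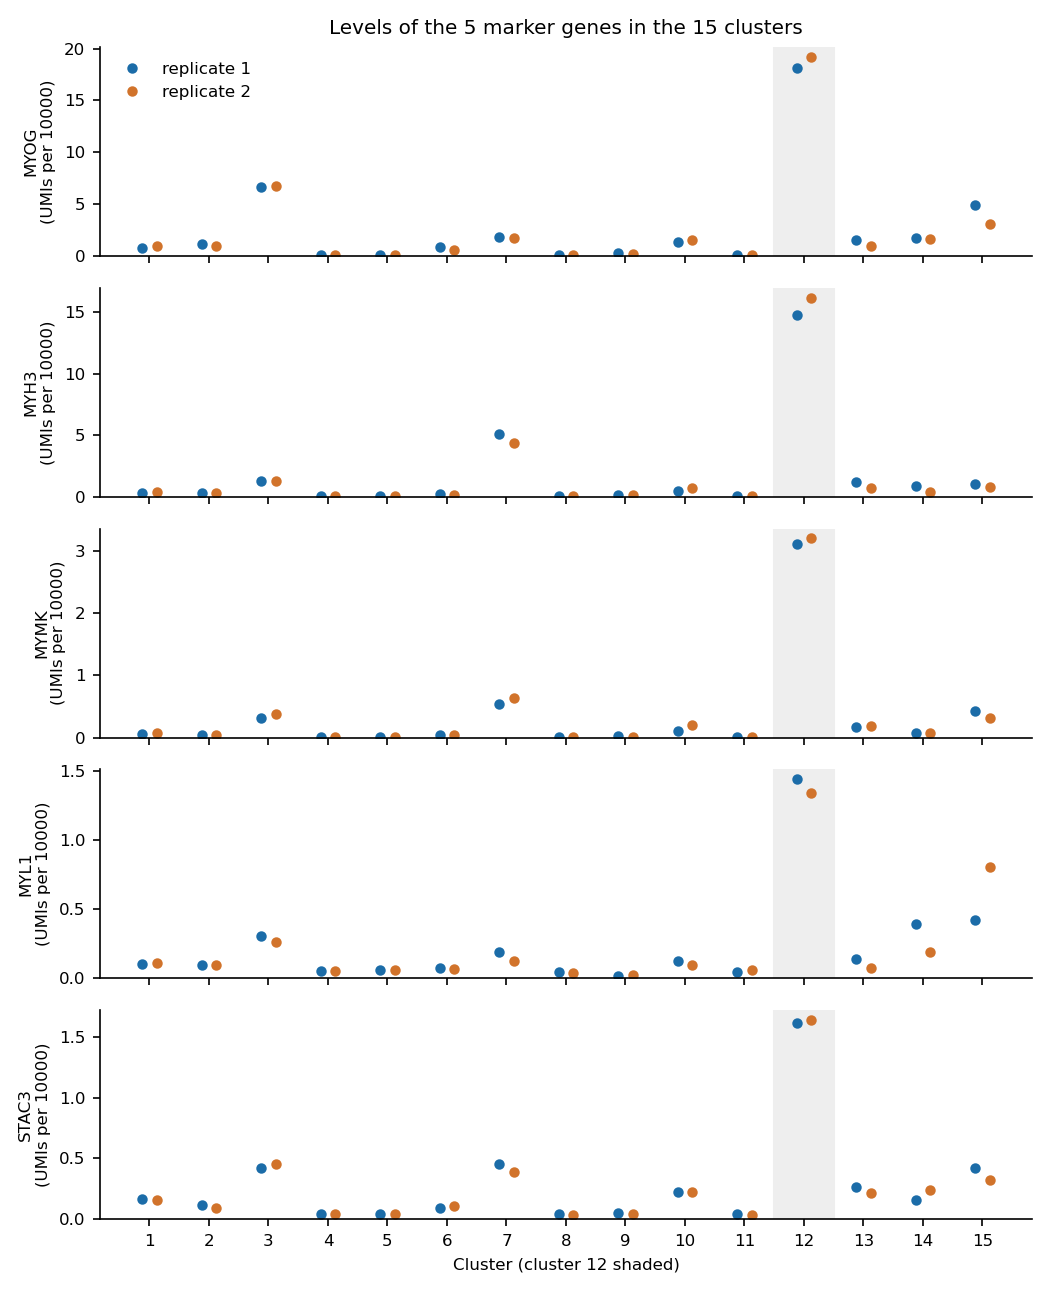
Levels of MYOG, MYH3, MYMK, MYL1 and STAC3 in UMIs per 10000 (vertical axes) in clusters 1 to 15 (horizontal axis), with 1 point per library and cluster 12 shaded. Both points of cluster 12 lie above those of every other cluster in each panel, and the next highest is cluster 3 for MYOG, cluster 7 for MYH3 and MYMK, and cluster 15 for MYL1, while clusters 3 and 7 overlap for STAC3.

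Each cell was also thinned to 5000 UMIs so that shares of cells could be compared at equal depth, which left 613 cells of cluster 12, 2031 of cluster 3 and 1080 of cluster 9. Cluster 9 was taken as cells that should lack these genes, so its shares serve as a background. Free RNA was not measured, and 13.8% of the cells of cluster 9 were called doublets, and their part in its shares was not tested. A UMI of MYOG was found in 98.0% of thinned cells of cluster 12, in 63.6% of cluster 3 and in 7.22% of cluster 9. For MYH3 the shares were 88.3%, 25.9% and 3.33%. For MYMK they were 69.7%, 14.2% and 0.370%. STAC3 gave 53.8%, 19.9% and 2.31%, and MYL1 gave 35.1%, 9.35% and 0.648%. Cluster 9 was not the highest background for every marker. MYL1 was found in 2.66% of thinned cells of cluster 4 and 2.87% of cluster 5. For MYMK these shares were 0.68% and 0.61%, and for MYH3 they were 3.46% and 2.99%. MYOG, at 5.22% and 5.67%, and STAC3, at 1.93% and 2.26%, were below cluster 9 in both. In cluster 12 each share was above that of cluster 9, and a UMI was found in most thinned cells for each marker except MYL1. At full depth the shares in cluster 12 were 99.5% for MYOG, 98.1% for MYH3, 94.3% for MYMK, 87.1% for STAC3 and 60.6% for MYL1. All 5 markers were found together in 85 thinned cells of cluster 12 (13.9%) and in 1 of cluster 3, and cluster 12 held 96.6% of the 88 such cells. Thinning left 12 of the 1298 cells of cluster 7 and 0 of clusters 13 and 15, so these could add few or none. It left 78 of the 446 cells of cluster 14, of which 1 had all 5 markers, and 558 of the 1010 cells of cluster 10. Only 1 thinned cell of cluster 12 had none of the 5.

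Markers of other cell types were then examined. PAX7, the transcription factor that defines satellite cells, had 0 UMIs in cluster 12, against 94 in replicate 1 and 82 in replicate 2 of the other cells. A count of 0 in 627 cells allows a share of up to 0.478% with a UMI, and the level in the other cells was at least 2.69-fold higher than the limit of 3 UMIs over cluster 12. PAX3, its relative, had 1 and 4 UMIs. Of the 6 satellite cell markers, 4 were at 0 in cluster 12, and their summed level of 0.364 and 0.393 UMIs per 10000, against 0.286 and 0.295 in the other cells, was almost all SDC4, a surface proteoglycan. The 11 markers of fibro-adipogenic progenitors, the connective tissue progenitors of muscle, summed to 3.75 and 3.27 against 10.9 and 10.7, with DCN, the gene of the matrix protein decorin, as the most abundant and 2 at 0. PDGFRA, the receptor that defines these progenitors, had levels of 0.125 and 0.0831 against 0.330 and 0.316. ZNF423, a transcription factor of adipocyte precursors, was higher in both libraries, with levels of 0.104 and 0.0943 against 0.0519 and 0.0523. The 8 endothelial and 4 mature adipocyte markers summed to at most 0.00639 UMIs per 10000 in a library, led by VWF and PLIN1, with 4 and 2 at 0. The 6 pericyte markers summed to 0.145 and 0.120 against 0.609 and 0.635, led by NOTCH3 with 1 at 0, and the 4 tenocyte markers to 0.0650 and 0.0607 against 0.433 and 0.446, led by FMOD with 2 at 0. The 5 smooth muscle markers summed to 8.55 and 7.84 against 7.56 and 7.51, and most of this was ACTA2, the smooth muscle actin that cultured myogenic cells also express. The 5 glial markers, with 4 at 0, reached 0.550 and 0.508 through S100B alone, and the 7 blood markers, with 4 at 0, reached 0.0423 and 0.0399, led by the hemoglobin gene HBA with 18 UMIs in each library. PECAM1, PTPRC and RGS5, which define endothelial cells, white blood cells and pericytes, were at 0. Of these lists, the smooth muscle, glial, blood and satellite cell sums were above those of the other cells, each through 1 leading gene, and the rest were below. The part of such cells in the results was not tested.

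Across all genes, 10112 were compared with the other cells, those expected at 20 or more UMIs in cluster 12 from the mean of the shares in both sets. A gene was called when its TMM-scaled ratio was at least 2-fold in the same direction in both libraries. By this rule 833 genes (8.24%) were higher and 1179 (11.7%) were lower in cluster 12. The log2 ratios of the libraries had a correlation of 0.952 across genes, which are not independent, and differed by a median of 0.132. Of the 10112 genes compared, 658 had their highest level of the 15 clusters in cluster 12 in both libraries. Among the 833 higher genes, 473 did. For these 473 genes the second highest mean lay most often in cluster 3 (159 genes), cluster 7 (147) or cluster 15 (61). Against cluster 3 alone, 9837 genes were compared, of which 436 (4.43%) were higher and 129 (1.31%) lower in cluster 12. With plain UMI shares these counts were 373 and 186. Of the 833 genes higher than in the other cells, 393 were also higher than in cluster 3 and 0 were lower, while 114 of the 1179 lower genes were also lower than in cluster 3 and 3 were higher. The 3 were CXCL12, a chemokine, DHRS3, a retinal reductase, and SGO1, which guards the cohesion of chromosomes, with 14 to 25 UMIs in a library of cluster 12. The lists below are read against these shares.

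**Figure D2:**
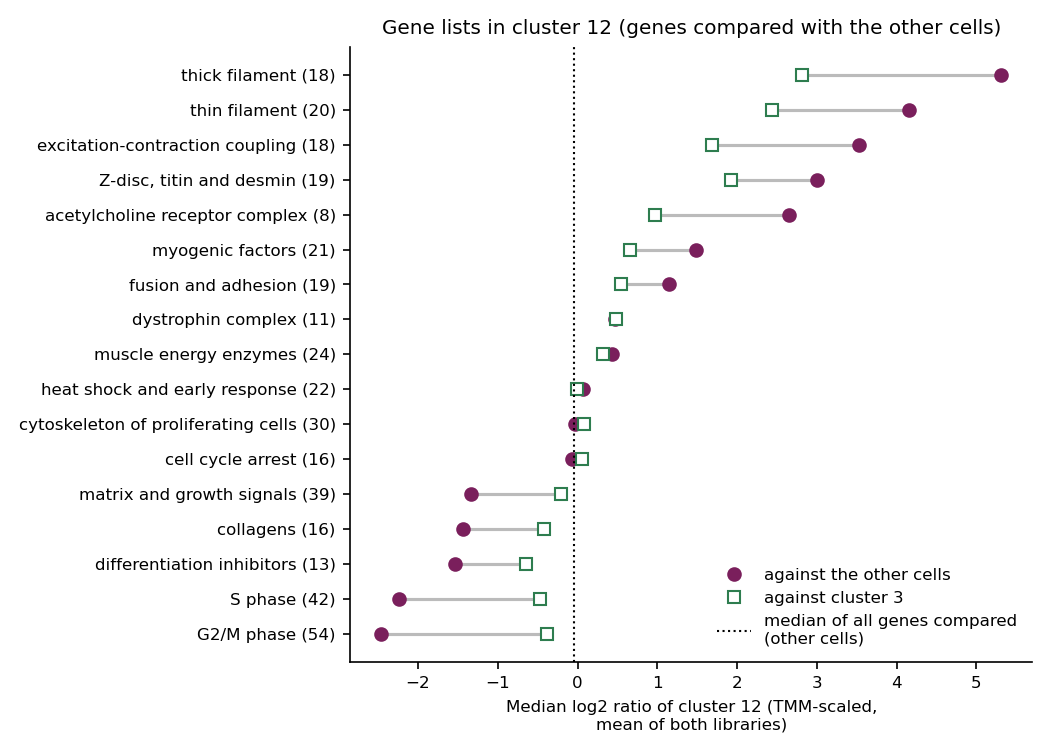
Median log2 ratio of cluster 12 for each of 17 gene lists (horizontal axis, TMM-scaled mean of both libraries), against the other cells (filled circles) and against cluster 3 (open squares), with the number of genes compared with the other cells in brackets and the median of all genes compared with the other cells as a dotted line at -0.05. The medians run from 5.31 for the thick filament to -2.46 for the G2/M list, and the squares lie nearer to 0 than the circles for the lists far from 0.

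Of 25 myogenic factors, 21 were compared with the other cells, and 12 were higher and 0 lower, with a median log2 ratio of 1.49 against -0.05 over all genes. Against cluster 3, 5 of 21 were higher and 0 lower, with a median of 0.66. MEF2C (ENSBTAG00000020701), a partner of the myogenic factors that switches on muscle structural genes, had levels of 0.394 and 0.398 against 0.00817 and 0.00760 in the other cells and 0.0122 and 0.0110 in cluster 3. Its log2 ratios against cluster 3 were 5.14 and 5.28, so this factor separated cluster 12 from cluster 3 far more than MYOG did, at 1.57 and 1.60. SMYD1, a muscle methyltransferase needed for myofibril assembly, had log2 ratios of 3.98 and 4.12 against the other cells. MEF2A and MEF2D, of the same family as MEF2C, had ratios of 1.87 in both libraries and of 1.76 and 1.81. MYOD1, which commits cells to the muscle lineage, was near its level in the other cells, with log2 ratios of 0.15 in both libraries, and MYF5, which acts earlier, had ratios of -0.48 and -0.67. Neither MYOD1 nor MYF5 passed the 2-fold rule. TEAD4, a partner of coactivators of growth, had levels of 0.0667 and 0.145, so the libraries differed more than 2-fold in level. Its ratios within the libraries were nevertheless both 1.89.

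Of 15 genes that hold back differentiation, 13 were compared, of which 7 were lower and 1 higher than in the other cells, with a median log2 ratio of -1.54. Against cluster 3, 3 of 13 were lower and 1 higher, with a median of -0.65. ID2 (ENSBTAG00000021187), which binds and blocks the partners of myogenic factors, had levels of 0.281 and 0.321 against 1.31 and 1.35, with log2 ratios of -2.04 and -1.88. ID3 had levels of 0.781 and 0.866 against 2.74 and 2.69, and ID4 had log2 ratios of -2.08 and -2.52. ID1, the fourth of this family, was at 9.76 and 10.2 against 10.5 and 10.4 and did not pass the rule, so the family did not move as a block. HEY1 and HEYL, targets of Notch signaling, had log2 ratios of -2.09 and -1.76 and of -1.94 and -1.79. SNAI2 and TWIST1, repressors of differentiation, had ratios of -1.97 and -1.90 and of -2.38 and -2.11. TWIST2 had 0 UMIs in cluster 12, and its level in the other cells was at least 4.56-fold higher than the limit of 3 UMIs over cluster 12. MSTN (ENSBTAG00000011808), the gene of myostatin, which limits muscle growth, was the one member higher in cluster 12, with levels of 0.150 and 0.153 against 0.0175 and 0.0142. Its 92 UMIs in replicate 1 came from 48 cells and its 96 in replicate 2 from 50.

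Genes of the sarcomere were taken in 3 lists, for the thick filament, the thin filament, and the Z-disc with titin and desmin. Of 75 such genes in the files, 57 were compared with the other cells, and 52 were higher and 2 lower, with a median log2 ratio of 4.28. Against cluster 3, 49 of 57 were higher and 1, MYH15, was lower, with a median of 2.45. Their UMIs summed to 495 and 485 per 10000 in cluster 12, against 75 and 74 in the other cells and 173 and 167 in cluster 3. Of the 57 compared, 47 were highest in cluster 12 in both libraries, against 658 of the 10112 genes compared in all. Of the 75, 7 had no UMI there, which were MYBPC3, MYH7B, MYH13, MYOZ3, ANKRD23, CAPN3 and TCAP.

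In the thick filament list, 17 of 18 genes compared were higher. MYLPF (ENSBTAG00000021218), the regulatory light chain of fast myosin, had levels of 70.2 and 66.8 against 3.13 and 2.87, with log2 ratios of 4.67 and 4.73. MYL4, the light chain of embryonic muscle and atrium, had levels of 2.22 and 2.73 against 0.0495 and 0.0562. MYOM1 and MYOM2, which crosslink thick filaments at the M-line, had log2 ratios of 5.43 and 5.37 and of 6.18 and 5.88. UNC45B, the chaperone that folds myosin heads, had ratios of 5.36 and 5.09, so the assembly factor differed about as much as the filament proteins. TRIM54, a muscle ring finger protein, had ratios of 6.27 and 6.76. MYH15, a slow myosin of extraocular muscle, was the 1 lower gene, with levels of 0.00813 and 0.0176 against 0.0505 and 0.0452. Its ratios of -2.46 and -1.17 show how far the libraries can part at 5 and 11 UMIs. MYBPC3, a myosin-binding protein of the heart, and MYH13 had 0 UMIs in every cell, and MYH1 and MYH4, the adult fast myosins, had 1 and 3 UMIs in cluster 12.

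The myosin genes lie in tandem and are alike in sequence. Only uniquely mapped reads were counted by the authors, and reads shared between MYH3, MYH8, MYH2, MYH1 and MYH4 may be missing from all of them. MYL2 (ENSBTAG00000018369), the regulatory light chain of slow and cardiac muscle, had libraries that lay far apart. Its levels were 0.938 and 0.336, with 577 UMIs in 51 cells of replicate 1 and 210 UMIs in 43 cells of replicate 2. A single cell of replicate 1 held 158 of them, and the 10 highest cells held 78.9% in replicate 1 and 74.3% in replicate 2. MYH8, the perinatal myosin, was found in 9 and 8 cells, where the highest cell held 28 of 58 and 27 of 53 UMIs. MYH2, an adult fast myosin, was found in 18 and 16 cells, with 71 and 30 UMIs. These isoforms thus came from few cells of cluster 12, whereas MYH3 was found in 310 of 315 and 305 of 312 cells, with 18.3% and 19.1% of its UMIs in the 10 highest. TRIM63, MYH7 and MYH6 were under the count needed for a comparison.

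In the thin filament list, 19 of 20 genes compared were higher. ACTC1 (ENSBTAG00000005714), cardiac actin, which is also the actin of embryonic skeletal muscle, had levels of 148 and 151 against 16 and 15.5, with log2 ratios of 3.39 and 3.48. ACTA1 (ENSBTAG00000046332), the actin of adult skeletal muscle, had levels of 19.999 and 17.5 against 0.175 and 0.155, and its log2 ratio was 7.01 in both libraries. Cluster 12 held 83.8% of all ACTA1 UMIs and 30.4% of those of ACTC1, so the adult isoform was the more restricted of the pair. Against cluster 3, ACTA1 had log2 ratios of 5.79 and 5.84 and ACTC1 of 1.40 and 1.45. The calcium-binding troponins TNNC1, of slow and cardiac muscle, and TNNC2, of fast muscle, had levels of 14.1 and 13.6 against 0.633 and 0.604 and of 37.6 and 36.6 against 3.52 and 3.48. The inhibitory troponins TNNI1, slow, and TNNI2, fast, had log2 ratios of 6.03 and 5.65 and of 5.22 and 5.01. Slow and fast troponins were therefore both higher in cluster 12. The levels of TNNI1 were 0.153 and 0.433, a difference between libraries that was also present in the other cells, at 0.00265 and 0.00981. LMOD3 and LMOD2, which start actin filaments, had log2 ratios of 7.03 and 6.57 and of 6.68 and 6.51. NEB, the giant protein along the thin filament, had ratios of 3.14 and 3.12, and TPM1 and TPM2, the muscle tropomyosins, had lower ratios of 1.11 and 1.09 and of 1.73 and 1.54. TPM3 (ENSBTAG00000033217), a tropomyosin of slow muscle and of the cytoskeleton, was lower, with levels of 2.00 and 2.01 against 5.12 and 5.03.

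In the Z-disc list, 16 of 19 genes compared were higher and 0 lower. CSRP3, the muscle LIM protein, had a log2 ratio of 6.63 in both libraries. ACTN2 and ACTN3, the alpha-actinins of muscle, had ratios of 5.62 and 6.0 and of 4.29 and 4.27. DES, the intermediate filament of muscle, had smaller ratios of 2.73 and 2.79, and cluster 12 held 21.4% of its UMIs, so it marked cluster 12 less sharply than the actinins. The small heat shock proteins HSPB8 and CRYAB, which guard the Z-disc, had levels of 23.7 and 21.5 against 3.27 and 3.15 and of 16.3 and 15.1 against 2.85 and 2.75. MYOZ1, SYNM and PDLIM5 did not pass the rule, with log2 ratios of 0.59 and 0.78, of 0.00 and 0.43, and of -0.86 and -0.87. TCAP, MYOZ3, ANKRD23 and CAPN3, genes of mature fibers, had 0 UMIs in cluster 12.

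**Figure D3:**
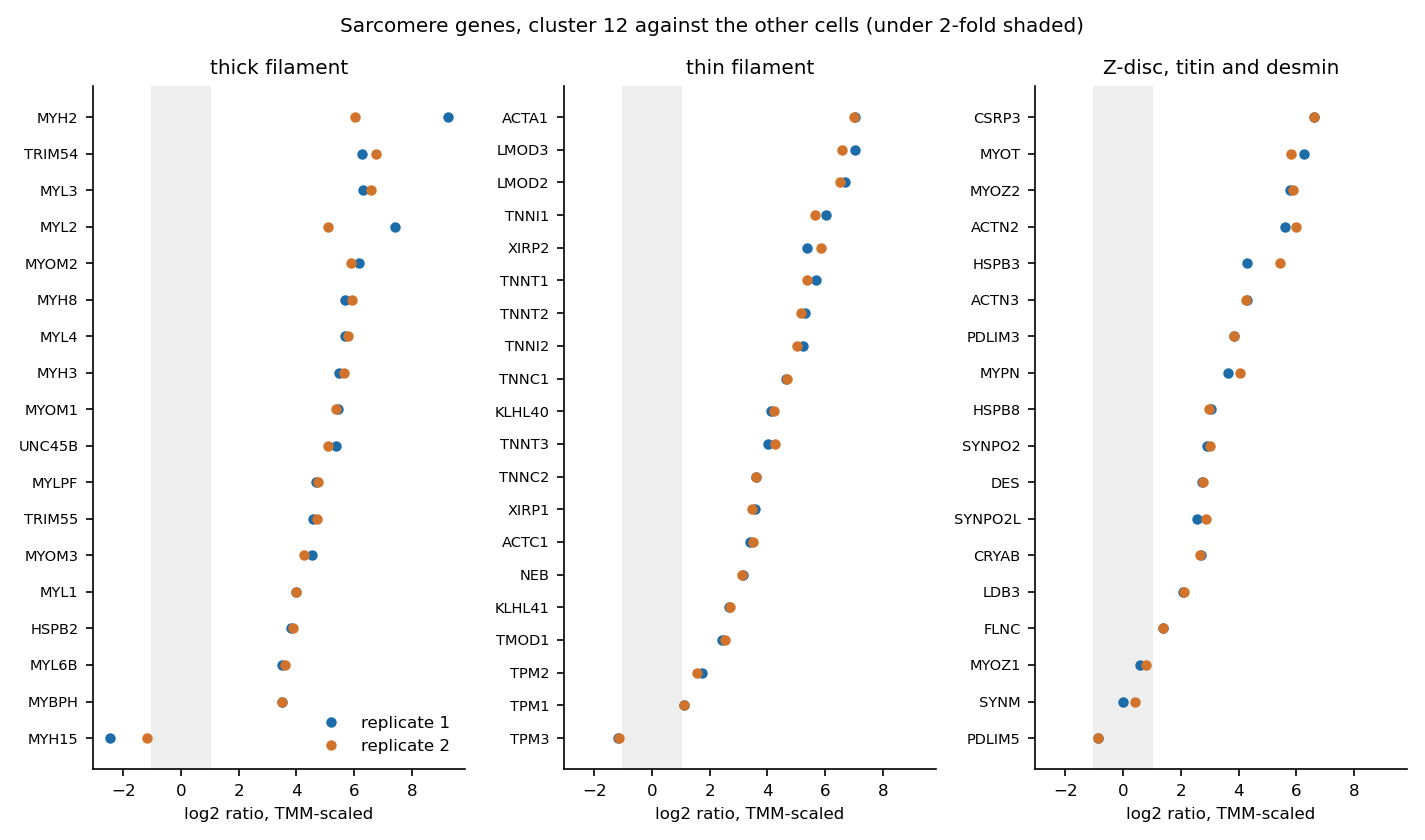
Log2 ratio of cluster 12 to the other cells (horizontal axes, TMM-scaled) for the sarcomere genes compared except 1 that is not drawn, in 3 panels by list, with 1 point per library and the range under 2-fold shaded. The points of a gene lie close together except for MYH2, MYL2, MYH15 and HSPB3, and all but 5 genes lie to the right of the shaded range in both libraries.

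Of 18 excitation-contraction genes compared, 13 were higher and 0 lower, with a median log2 ratio of 3.53. CASQ2 (ENSBTAG00000011500), a calsequestrin that stores calcium in the sarcoplasmic reticulum, had levels of 0.268 and 0.212 against 0.00229 and 0.00213, with log2 ratios of 7.05 and 6.83. CACNG1, a subunit of the voltage sensor, had ratios of 6.30 and 6.28. RYR1, the calcium release channel, had levels of 0.205 and 0.286 against 0.0166 and 0.0195. The calcium pump ATP2A1 of fast muscle was higher, with ratios of 5.07 and 5.35, while ATP2A2, the pump of slow and other cells, had ratios of -0.62 and -0.51 and did not pass the rule. CACNA1S, the voltage sensor itself, and CASQ1 were under the count needed.

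Of 8 genes compared from the acetylcholine receptor complex, which receives the signal of the nerve, 7 were higher and 0 lower. CHRNG (ENSBTAG00000045943), the subunit of the fetal receptor, had levels of 3.95 and 4.17 against 0.619 and 0.619, with log2 ratios of 2.85 and 2.94. CHRNE, the subunit that replaces it in adult muscle, had 2 UMIs in replicate 1 and 1 in replicate 2, and was not compared. MUSK, the receptor kinase that gathers acetylcholine receptors, had ratios of 3.44 and 3.41, and its partner DOK7 had 2.55 and 2.56. Cluster 12 thus showed the fetal subunit and the clustering kinase in a culture without nerve. Against cluster 3, 3 of 8 genes compared from this complex were higher and 0 lower. The complex summed to 9.73 and 10.4 UMIs per 10000 in cluster 12. Clusters 7, at 8.58 and 7.65, and 3, at 6.57 and 6.65, were not far below. In the dystrophin complex, which ties the cytoskeleton to the matrix, 3 of 11 genes compared were higher and 2 lower. DTNA, dystrobrevin, and SGCA, a sarcoglycan, had ratios of 3.02 and 2.76 and of 2.36 and 2.40, and SNTB1, a syntrophin, had 1.09 and 1.27. SNTB2, another syntrophin, and SGCE, the sarcoglycan of other tissues, were the lower members, with -1.27 and -1.33 and with -1.74 and -1.89, whereas UTRN, the relative of dystrophin, had 0.02 and 0.07.

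Of 19 fusion and adhesion genes compared with the other cells, 10 were higher and 1 lower. Against cluster 3, 6 of 18 were higher and 0 lower. MYMX, the gene of myomixer, had levels of 0.0260 and 0.0256 against 0.00186 and 0.00182, with 16 UMIs in each library, and was under the count needed for a call. TMEM182, a muscle membrane protein, had log2 ratios of 4.49 and 4.52, and CAV3, the caveolin of muscle, had 2.77 and 2.68. JAM2 and JAM3, adhesion molecules of cells about to fuse, had ratios of 1.31 and 1.26 and of 2.06 and 2.12. CDH15, the cadherin of muscle, had ratios of 1.79 and 1.75, and CDH2, the neural cadherin, was lower, with ratios of -3.26 and -3.64 on 4 and 3 UMIs. The 2 cadherins thus lay on opposite sides of the other cells.

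Of 24 muscle energy enzymes compared, 7 were higher and 0 lower, with a median log2 ratio of 0.44 against -0.05 over all genes. CKM (ENSBTAG00000013921), the creatine kinase of muscle, had levels of 0.553 and 0.514 against 0.00559 and 0.00464, with ratios of 6.81 and 6.98. CKB, the brain form, was at 0.815 and 0.773 against 1.07 and 1.03 and did not pass the rule. ENO3, the enolase of muscle, had ratios of 2.62 and 2.60, and SLC25A4, which exchanges ADP and ATP across the mitochondrial membrane, had 2.34 and 2.31. GAPDH had ratios of 0.19 and 0.22, and did not differ like the muscle isoforms. A list of cytosolic ribosomal protein genes, added after the files were seen, held 82 identifiers under 71 symbols. Of the 76 identifiers compared, 0 were higher and 0 lower, with a median log2 ratio of 0.11.

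Of 16 genes compared from the list of cell cycle arrest, 4 were higher and 3 lower, with a median log2 ratio of -0.07, near that of all genes. This list also held the cyclins CCND1, CCND2, CCND3, CCNG1 and CCNG2. Its counts and median therefore do not describe inhibitors of the cell cycle alone. CDKN1C (ENSBTAG00000031184), an inhibitor of cyclin-dependent kinases, had levels of 37.5 and 37.3 against 5.76 and 5.87 in the other cells and 18.6 and 19.1 in cluster 3. CDKN1A (ENSBTAG00000008353), the inhibitor p21, had levels of 10.2 and 9.05 against 1.22 and 1.2 and against 1.76 and 1.67 in cluster 3. Cluster 3 thus lay between the other cells and cluster 12 for CDKN1C, and close to the other cells for CDKN1A. RB1, the retinoblastoma gene, had log2 ratios of 1.38 and 1.5, and GADD45G, a stress-induced inhibitor of growth, had 1.31 and 1.29. The inhibitors CDKN2C and CDKN2D and RBL1, a relative of RB1, were lower, with ratios of -1.44 and -1.75, of -2.04 and -1.76, and of -1.74 and -1.16.

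Most genes of the dividing cell were lower than in the pooled other cells. Of 42 S phase genes compared, 35 were lower and 0 higher than in the other cells, with a median log2 ratio of -2.24, and their summed level was 6.75 and 7.15 against 27.6 and 27.1. Of 54 G2/M genes compared, 46 were lower and 1 higher, with a median of -2.46, and their summed level was 24.9 and 24.8 against 72.8 and 71.2. PCNA, the sliding clamp of DNA replication, had levels of 0.314 and 0.348 against 2.33 and 2.31. MKI67, the gene of the proliferation marker Ki-67, had levels of 0.294 and 0.339 against 3.33 and 3.27, and TOP2A, a topoisomerase of mitosis, had log2 ratios of -3.19 and -3.15. JPT1 was the 1 higher G2/M gene, with levels of 9.71 and 9.23 against 4.44 and 4.43, and it was the most abundant gene of that list in cluster 12. Against cluster 3 few of these genes passed the rule. There, 2 of 38 S phase genes compared were lower, the helicase subunit MCM2 and the centromere protein CENPU, and 1 was higher, the cyclin CCNE2 with ratios of 1.51 and 1.12. Of 52 G2/M genes compared, 9 were lower and 0 higher, with CCNB2, a mitotic cyclin, at -1.56 and -1.79 and NUF2, of the kinetochore, at -1.43 and -1.65. The sums in cluster 3 were 10.7 and 11 for S phase and 27.0 and 29.0 for G2/M, so cluster 12 lay below it by less than it lay below the other cells. Of the 15 clusters, cluster 12 had the lowest S phase sum, whereas its G2/M sum was above those of cluster 1, at 22.1 and 21.5, and of cluster 8, at 14.9 in both libraries. Without JPT1, a choice made after seeing the data, the G2/M sum was 15.2 and 15.5 in cluster 12, 18.6 and 18.2 in cluster 1, and 13.4 and 13.3 in cluster 8, so the order against cluster 1 turned.

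Most collagens compared were lower as well. Of 16 collagens compared, 10 were lower and 0 higher, and their sum was 71.7 and 69.8 against 132 and 136. COL1A1, a chain of type I collagen, had levels of 12.2 and 11.2 against 34.2 and 34.4, while COL1A2, the other chain, had 37.8 and 37.5 against 48.8 and 51.5 and did not pass the rule. Of 39 genes of matrix and growth signals, 22 were lower and 6 higher, which were ERBB3, IGF2, IGF1R, TGFB1, TGFB2 and TIMP2. The summed level of this list was 101 and 110 against 104 and 109, and was led by SPARC, a matrix protein. Against cluster 3, 0 of 15 collagens compared were lower or higher, and 4 of 35 matrix and growth genes were lower and 2 higher. IGFBP5, which binds insulin-like growth factors, had levels of 0.0699 and 0.0655 against 0.953 and 0.956, and its ratios against cluster 3 were 0.00 and -0.11. IGF2, a growth factor of fetal muscle, was higher, at 20.7 and 25.8 against 7.94 and 10.2. ERBB3 (ENSBTAG00000010444), a receptor for neuregulin, the growth factor that nerves release onto muscle, had levels of 0.246 and 0.318 against 0.00645 and 0.00753 and ratios of 5.43 and 5.59. Its 151 and 199 UMIs came from 103 and 117 cells, so unlike MYL2 it was spread over the cluster.

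Of 30 cytoskeletal genes of proliferating cells, 4 were higher and 7 lower. TAGLN2, an actin-binding protein, had levels of 0.795 and 0.703 against 8.32 and 8.66, and VIM, the intermediate filament of undifferentiated cells, had 37.9 and 36.6 against 86.7 and 85.7. NES, another intermediate filament, was higher, with log2 ratios of 2.01 and 2.10. The tubulins TUBB6 and TUBA1A and the light chain MYL9 were higher as well, with 1.65 and 1.69, 1.44 in both libraries, and 1.55 and 1.57. Vimentin and nestin thus went in opposite directions. The heat shock and early response genes, which handling of cells can induce, had 22 identifiers under 21 symbols. Of the 22, 4 were higher and 1 lower, with a median of 0.06. FOS had ratios of 1.39 and 1.32, FOSB of 1.78 and 3.00, HSPB1 of 1.27 and 1.22 and ATF3 of 1.07 and 1.28, and DDIT3 was the lower gene, at -1.38 and -1.29. Other early response genes did not move with them, as JUN had -0.31 and -0.22 and EGR1 had -0.33 and -0.30, and neither passed the rule. The part of handling in these values was not tested.

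At 1 or more UMI per 10000 in both libraries, 200 genes were higher than in the other cells, of which 50 were list members and 5 had no symbol. SMIM5 (ENSBTAG00000010758), a small membrane protein, led those outside the lists with levels of 1.72 and 1.91 against 0.0323 and 0.0318, and cluster 12 held 72.1% of its UMIs. ARPP21, a phosphoprotein known from neurons, and BFSP2, an intermediate filament known from the eye lens, followed with log2 ratios of 4.87 and 4.84 and of 4.70 and 4.72. ADGRG1, an adhesion receptor, had ratios of 3.73 and 3.91, TM7SF2, a sterol reductase, had 3.65 and 3.71, and SRPK3, a protein kinase of muscle, had 3.35 and 3.43. FNDC5, the precursor of irisin, had levels of 4.96 and 4.89 against 0.831 and 0.797. CDV3 (ENSBTAG00000035556) was abundant, with levels of 51.1 and 51.8 against 9.96 and 10.0. The remaining 12 of the 20 named by rule were FILIP1, PVR, LIMS2, RASSF4, ABR, CARD10, ZNF106, TACC2, MLLT11, CAP2, FZD2 and EFHD2. Of the 20, 19 were highest in cluster 12 in both libraries and CARD10 was higher in cluster 7. CAP2, an actin regulator, did not pass the rule against cluster 3, and the other 19 did.

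Of 141 genes lower than in the other cells at 1 or more UMI per 10000 there, 46 were list members and 2 had no symbol. ASPM, of the mitotic spindle, led the others with log2 ratios of -3.47 and -3.76. CCNB1, SMC2, MCM3 and NCAPG, genes of division that the lists did not hold, were named by the same rule. PTMA (ENSBTAG00000002549), prothymosin alpha, a nuclear protein of growing cells, had levels of 1.96 and 2.05 against 16.7 and 16.3. MT2A, a metallothionein, had ratios of -3.16 and -3.28. Among secreted factors named by the rule, the ratios were for CXCL5 -3.20 and -3.07, for FGF7 -2.94 and -3.12, and for PTN -2.61 and -2.93. CREB3L1, FILIP1L and LASP1 were also among the 15 that lead by size.

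Against cluster 3, 77 genes at 1 or more UMI per 10000 were higher, 34 of them list members, and 13 were lower, of which 3 were the list members BIRC5, HES1 and IGFBP3 and 1 had no symbol. IGFBP3, another binding protein of insulin-like growth factors, had levels of 0.350 and 0.329 against 2.05 and 2.11 in cluster 3. The 10 leading genes outside the lists were SMIM5, ARPP21, BFSP2, ADGRG1, TM7SF2, FILIP1, LIMS2, ZNF106, TACC2 and MLLT11, all among the 20 named above. ZNF106, an RNA-binding protein of muscle, had levels of 7.04 and 6.77 against 1.79 and 1.68 in cluster 3 and 1.32 and 1.30 in the other cells, so cluster 3 stood near the other cells for this gene. Among the other 9 lower genes were PNP, CREB3L1, RIDA, IQGAP1, SLC25A5, PTMA, CSF1 and H2AFZ. PNP, a purine salvage enzyme, had levels of 0.883 and 0.868 against 2.59 and 2.54. SLC25A5, the ADP and ATP carrier of growing cells, had ratios against cluster 3 of -1.25 and -1.23, while SLC25A4, its muscle form, had 1.54 and 1.46. The 2 carriers thus lay on opposite sides of cluster 3.

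The cells of cluster 12 were not all alike. The share of a cell's UMIs from the 75 sarcomere genes had a median of 448 per 10000 in replicate 1, with a lowest of 196 and a highest of 2010, and a median of 418 in replicate 2, from 214 to 1650. In cluster 3 the medians were 160 and 154. Of the cells of cluster 3, 9 of 2034 (0.442%) lay above the median cell of cluster 12, and 0 cells of cluster 12 lay below the median cell of cluster 3. The ranges of the clusters overlapped, since the 75th percentile of cluster 3 was 218 and 213 and its highest cells reached 620 and 543. This scale belongs to the genes that formed the clusters.

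**Figure D4:**
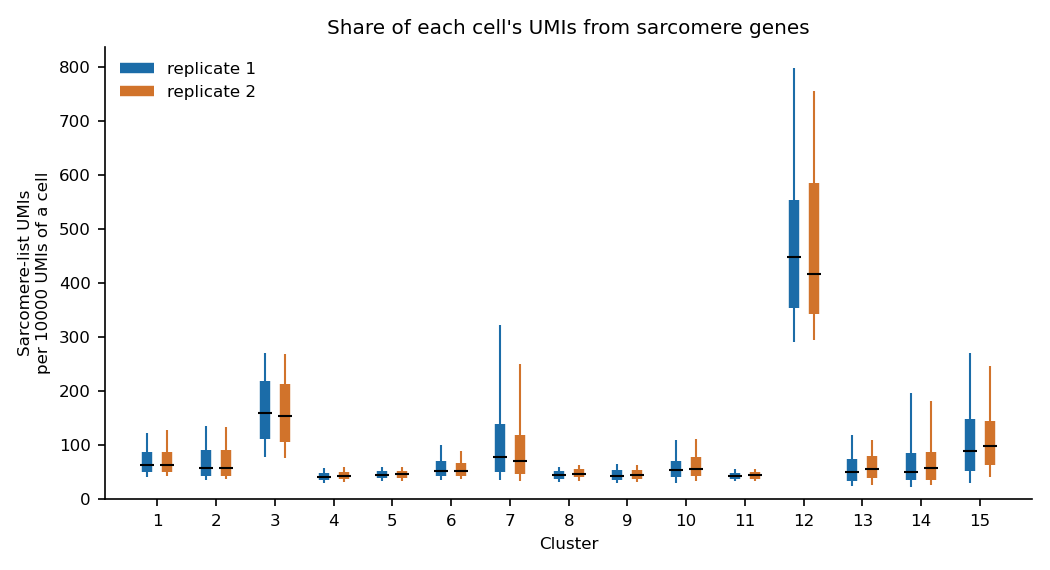
UMIs of the sarcomere lists per 10000 UMIs of a cell (vertical axis) in clusters 1 to 15 (horizontal axis), by library, with the median as a black line, thick bars from the 25th to the 75th percentile and thin lines from the 10th to the 90th. Cluster 12 has medians of 448 and 418, cluster 3 of 160 and 154, and the 10th percentiles of cluster 12, 291 and 295, lie above the 90th percentiles of cluster 3, 271 and 268.

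To see what went with this share, the cells of cluster 12 were put by it into 4 bands of 78 or 79 cells within each library. Sarcomere genes chose the bands, so their own differences are not results. The summed level of these genes was 302 and 295 UMIs per 10000 in the lowest band and 792 and 788 in the highest. The median UMIs per cell were 17979.5 and 19640 in the lowest and 19801 and 20395 in the highest band, and 7 and 4 cells of the lowest but 0 of the highest were called doublets. Their part in the differences was not tested. By plain shares, 7334 genes were compared between the highest and the lowest band, of which 183 (2.50%) were at least 2-fold higher in both libraries, 40 of them sarcomere genes, and 140 (1.91%) were lower. CKM was higher, with levels of 1.51 and 1.48 in the highest band against 0.142 and 0.135 in the lowest. MYMK had 5.55 and 5.50 against 1.84 and 1.80, and CDKN1A had 16.8 and 14 against 6.94 and 6.10. Creatine kinase, myomaker and p21 therefore went with the sarcomere share among cells. MYOG did not, with 18.1 and 19.0 in the highest band and 19.6 and 18.3 in the lowest, and CDKN1C hardly did, with 40.1 and 43.9 against 35.5 and 33.7. CENPF, a kinetochore protein, was lower in the highest band, at 0.275 and 0.287 against 1.03 and 1.24, and MMP2, a matrix protease, had 2.47 and 2.00 against 6.07 and 5.65. The values of CENPF and CKM rest on few cells. In cluster 12, CENPF was found in 122 and 124 cells, of which the 10 highest held 56.1% and 48.3% of its UMIs, and CKM in 76 and 72 cells, of which the 10 highest held 46.8% and 42.5%. Summed collagens were at 57.1 and 53.0 against 83.4 and 74.9, while the summed G2/M list was at 25.7 and 25.1 against 24.7 and 28.1. The S phase sum was at 5.08 and 4.83 against 7.69 and 9.63. JPT1 had 14 and 13.5 in the highest band against 6.80 and 7.47 in the lowest, and without it the G2/M sum was at 11.7 and 11.6 against 17.9 and 20.6. The collagen sum, the S phase sum and the G2/M sum without JPT1 were thus lowest in the highest band in both libraries. The smooth muscle marker sum was highest there, at 11.9 and 10.7 against 6.54 and 5.79 in the lowest band. That of fibro-adipogenic progenitors was at 3.19 and 2.65 against 4.28 and 3.19. The part of such cells in the bands was not tested.

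Across the 315 and 312 cells, the rank correlation with the sarcomere share was 0.413 and 0.548 for MYMK, 0.524 and 0.463 for CDKN1A, -0.083 and -0.013 for MYOG, and -0.236 and -0.256 for COL1A1. These are descriptions over cells that share a library and differ in depth. MYOG had correlations of -0.31 and -0.275 with the UMIs of a cell, and MYMK of 0.027 and -0.043. The level of MYOG was thus close to even across the cells that differed most in sarcomere transcripts.

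**Figure D5:**
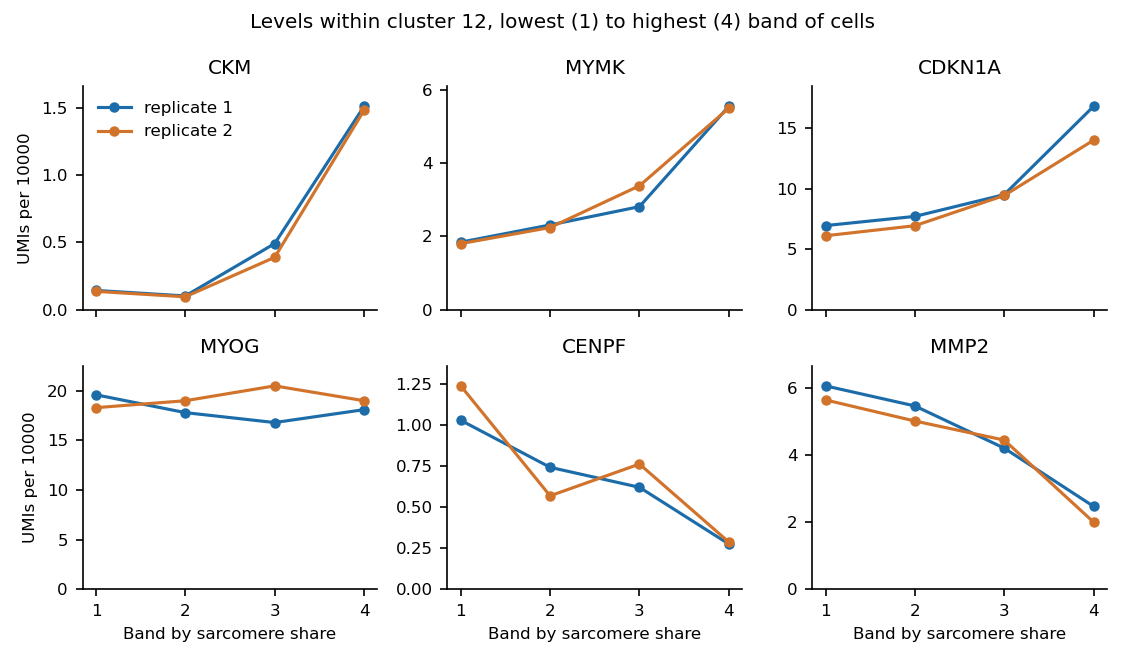
Levels of CKM, MYMK, CDKN1A, MYOG, CENPF and MMP2 in UMIs per 10000 (vertical axes) in bands of the cells of cluster 12, from the lowest (1) to the highest (4) share of sarcomere UMIs (horizontal axes), with 1 line per library. CKM, MYMK and CDKN1A are highest in band 4, CENPF and MMP2 are lowest there, and MYOG stays between 16.8 and 20.5.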

How the data were processed

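Per the labels and the paper's methods, the authors ran Cell Ranger 3.0.2 against the genome build ARS-UCD1.2, counted uniquely mapped reads as UMIs, combined the libraries at equal mapped depth and clustered the cells. The deposited counts are whole UMIs of 21867 genes in 19096 cells. The authors also deposited average values, in a unit of their own, for 16816 genes in 15 clusters. Multiplied by each cluster's UMIs and divided by their common total of 14889, these are whole sums within 0.000110, and elimination in 32 rounds gave every cell a cluster, with 0 of 252240 sums differing. The authors' log2 fold changes and p-values of each cluster were not used. The library was read from the barcode suffix. UMIs were summed per library, scaled with TMM (edgeR 4.0.16) and compared as ratios within each library, so the library pairs the sums. Doublets were called with Scrublet in scanpy 1.11.5 at a score of 0.25 with an expected rate of 8%. The alternatives were plain shares, DESeq2 1.42.0 size factors, equal weights of clusters, filters, cells left out or reassigned, and single libraries.

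Members and lists were chosen with earlier results of these data known. List members may be named. Outside the lists, the genes named are the 20 highest and 15 lowest against the other cells and up to 10 in each direction against cluster 3, at 1 UMI per 10000 or more in the higher set. A few genes that the rule or the lists hold are not reported here. Genes singled out for their spread over cells or over bands were chosen after their values were seen. Of the identifiers, 5245 had no symbol, and RefSeq named 0 of them. An antisense or overlapping gene was not separated from its partner.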

Additional observations from a re-analysis of the deposited data

How the results depend on the processing

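The log2 ratios of the 5 marker genes against the other cells were positive under all alternatives run for them. Their size moved most for MYH3 and MYMK with clusters weighted equally, from 5.55 to 4.64 and from 5.48 to 4.76. MYOG, MYL1 and STAC3 were then at 3.93, 3.47 and 3.45, in place of 3.96, 3.98 and 3.79. Counts against the other cells stayed within 1.5 times of the reported ones, except that a minimum of 100 UMIs gave 672 lower genes in place of 1179. Against cluster 3, a minimum of 100 UMIs gave 267 higher and 66 lower genes, and no filter gave 794 and 315. With a single library, 301 to 314 genes were lower than in cluster 3, against 129 called in both. The sarcomere median of 4.28 was 4.10 with plain shares, 4.32 with DESeq2 size factors, 3.78 with clusters weighted equally, 3.92 without a filter, 4.15 at 100 UMIs, 4.33 without doublets, 4.26 with cells assigned by profile, 4.21 with Leiden clustering, and 4.26 to 4.29 with a single library. The log2 ratio of summed G2/M genes, taken from plain UMI shares without TMM scaling, was -1.54. It was -1.41 with equal weights, -1.62 without doublets, -1.58 by profile and -1.79 with Leiden clustering. As an alternative chosen after seeing the data, it was -2.14 without JPT1. The filters test other numbers of genes, and a single library asks for less than both. The sum without JPT1 leaves out its most abundant member. For the other settings the cause was not tested. The profiles gave 730 cells to cluster 12 and kept 603 of the 627. Of the cells they added, 58 came from cluster 3, 25 from cluster 14 and 17 from cluster 15. Clusters 10, 13, 7 and 1 gave 11, 9, 5 and 2. Leiden clustering gave 621 and kept 550, with 71 cells from cluster 3.

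The ratios pair cluster 12 with the other cells of its library, and no test was made on them, since the cells were clustered on the same genes. The limits are 1 animal, 1 culture and 2 libraries of the same cells, so no biological error can be given. Genes under 20 UMIs expected in cluster 12 were not compared. Fewer transcripts per cell and fewer cells with a transcript were told apart only for the genes given as shares of cells.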
